A study of Mus musculus with 4 samples.

Results

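The ephrin and Notch genes linked to arteriovenous identity in the mouse angiogenesis PCR array were taken by symbol, and 4 of 5 were found among the 84 genes of the panel: the ephrins *Efna1* and *Efnb2*, the Eph receptor *Ephb4* and the Notch ligand *Jag1*. *Efnb2*, *Jag1* and *Ephb4* bear on arterial or venous identity, while *Efna1* is an ephrin that marks neither vessel type. No row of the ratios used here carried the symbol *Notch4*, which was not analysed here. The RNA came from ischemic adductor and gastrocnemius muscle harvested on POD 21 in the hindlimb gangrene model. FVB mice (FVB/NJ by the methods, 10 to 12 weeks old and of both sexes) received E-sel/AAV2/2, an adeno-associated virus vector carrying E-selectin, or LacZ/AAV2/2 as control, by intramuscular injection of 1e11 viral genomes in all. Both groups also underwent coagulation of the left femoral artery and vein and were given L-NAME, an inhibitor of nitric oxide synthase, at 40 mg/kg, so every ratio below compares muscles that shared the ischemia and the inhibitor. The promoter that drives the transgene is not given in the sources used here. RNA of 3 mice was pooled in each of the 2 groups and each pool was measured in 2 array runs. Run 1 and run 2 are therefore repeat measurements of the same pools, and the spread between them reflects the array and not the mice. The ratios could not be derived from the threshold cycles given for the same arrays, so they stand as the authors gave them. A ratio gives no abundance, so the levels of the 4 transcripts within either group are not known. In whole muscle, fewer cells of a type and less RNA per cell cannot be told apart.

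Ephrins are ligands held on the cell surface, and Eph receptors are the receptor tyrosine kinases that bind them on neighbouring cells. Ephrin-B2, the product of *Efnb2*, marks arterial endothelium, while its receptor EphB4 marks venous endothelium, and signalling between them keeps arterial and venous territories apart during vessel growth. Jagged-1, the product of *Jag1*, activates Notch receptors, which act through the DNA-binding protein RBPJ to maintain arterial fate and to recruit smooth muscle to the vessel wall. Notch4 is a Notch receptor of endothelium. Ephrin-A1, the product of *Efna1*, binds EphA receptors such as EphA2, and its gene is induced by TNF in endothelial cells. It is a ligand of angiogenic endothelium.

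The start regions of the ligand and receptor that define the 2 vessel types are shown because these genes are set against each other below. Both are the 250 bases upstream of the RefSeq transcription start in build GRCm38.p6, written 5′ to 3′ on the strand of the gene, with chr8:8661243-8661492 on the minus strand for *Efnb2* and chr5:137349859-137350108 on the plus strand for *Ephb4*. Capitals mark the GC box GGGCGG on either strand (CCGCCC on the reverse), the core of the site bound by Sp1.
Efnb2: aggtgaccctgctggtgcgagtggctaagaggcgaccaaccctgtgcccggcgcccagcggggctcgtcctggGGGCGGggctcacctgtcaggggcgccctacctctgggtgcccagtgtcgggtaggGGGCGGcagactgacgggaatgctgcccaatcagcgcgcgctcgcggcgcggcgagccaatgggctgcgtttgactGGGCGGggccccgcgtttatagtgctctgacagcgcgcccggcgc
Ephb4: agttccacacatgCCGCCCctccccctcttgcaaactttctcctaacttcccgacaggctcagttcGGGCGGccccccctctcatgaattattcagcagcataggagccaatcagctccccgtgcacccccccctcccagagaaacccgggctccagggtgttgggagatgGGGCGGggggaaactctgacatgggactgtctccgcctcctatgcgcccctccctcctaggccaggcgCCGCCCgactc
The GC box occurred 3 times in the *Efnb2* window and 4 times in the *Ephb4* window, whose GC contents were 72% and 64%. *Efna1* has 2 start sites in RefSeq, with 2 GC boxes before one and 1 before the other, and the *Jag1* window held 0. Of 32851 mouse promoter windows of the same length, 32.7% held at least 1 GC box. The core of the RBPJ site, TGGGAA, was searched on both strands and occurred in 0 of the 5 windows of the 4 genes, against 21.6% of all windows. The E-box CACGTG, a site bound by HEY proteins, occurred in 0 of the 5 windows, against 6.02% of all windows. These are matches of letters and do not show binding.

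Of the 4 genes, none differed by more than 2-fold between the E-sel/AAV2/2 pool and the LacZ/AAV2/2 pool when the 5 housekeeping genes of the array (*Actb*, *B2m*, *Gapdh*, *Gusb* and *Hsp90ab1*) served as reference, and all 4 lay below 1 in both runs. *Efna1* was the lowest of them and *Jag1* the nearest to 1. A value below 1 in both runs was common on this reference: it was seen for 54 of the 78 genes measured in each run, 69.2%. More than 2-fold lower were 9 genes, 11.5%, and more than 2-fold higher were 3 genes, 3.85%. The median log2 ratio of the panel was itself -0.29 in run 1 and -0.61 in run 2.

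For the A-type ligand *Efna1*, the ratio of E-sel/AAV2/2 over LacZ/AAV2/2 was 0.654 in run 1 and 0.433 in run 2, a fold change of 0.532 as the geometric mean. It was the only one of the 4 genes that passed 2-fold in either run, in run 2, in which 16 of the 78 genes were more than 2-fold lower. On this reference its runs also lay the furthest apart of the 4 genes. The SD of its 2 log2 ratios was 0.42, against 0.09 for *Efnb2*, 0.16 for *Ephb4* and 0.13 for *Jag1*. For the arterial ligand *Efnb2*, the ratio was 0.650 in run 1 and 0.595 in run 2, with a fold change of 0.622. On this reference its runs lay the closest together of the 4 genes. For the venous receptor *Ephb4*, the ratio was 0.773 in run 1 and 0.661 in run 2, with a fold change of 0.714. For the Notch ligand *Jag1*, the ratio was 0.822 in run 1 and 0.723 in run 2, with a fold change of 0.771. The order *Efnb2*, *Ephb4*, *Jag1* from low to high was the same in both runs. *Efna1* lay just above *Efnb2* in run 1 and well below it in run 2. The gap between the runs of a gene depends on the reference, which shifts the 2 runs unequally, by 1.61 and 0.74 with *Gusb*. Relative to *Gusb* alone, the runs of *Efna1* lay the closest together of the 4 genes. With each run centred on the panel median, the runs of *Ephb4* and of *Jag1* lay closer together than those of *Efnb2*.

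**Figure D1:**
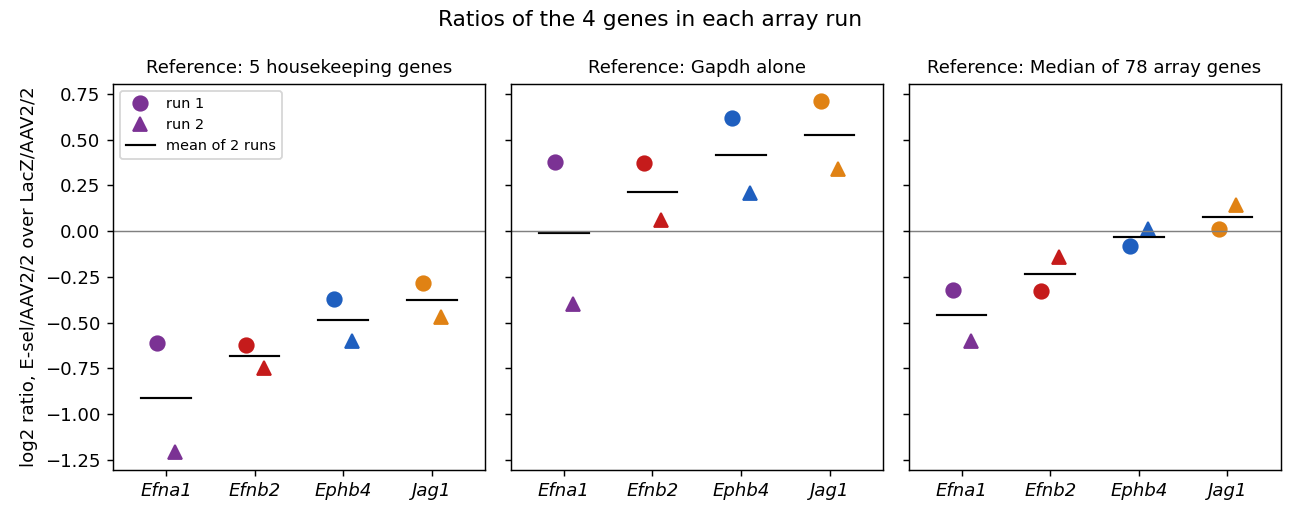
Log2 ratio of E-sel/AAV2/2 over LacZ/AAV2/2 for each of the 4 genes (horizontal axis), with run 1 as circles, run 2 as triangles and the mean of the 2 runs as a bar; the panels use the 5 housekeeping genes, *Gapdh* alone and the median of the 78 array genes as reference. The runs of *Efnb2*, *Ephb4* and *Jag1* keep their order in every panel, while the zero line moves from above all 4 genes to below most of them.

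In limma across the 78 genes on this reference, with Benjamini-Hochberg adjustment, 0 genes were called lower, 0% of the panel. *Efna1* had a log2 fold change of -0.91 with a standard error of 0.24 and an adjusted p of 0.0918 in limma. *Efnb2* had -0.69 with a standard error of 0.17 and the same adjusted p in limma. For *Ephb4* the log2 fold change was -0.49, and limma's adjusted p was 0.151. For *Jag1* it was -0.38, and limma's adjusted p was 0.203. At an unadjusted p under 0.05, *Efna1* and *Efnb2* were among 27 genes below 1, 34.6% of the panel, beside 5 genes above 1. These p-values weigh the difference between 2 pools against the spread between array runs.

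The authors' ratios are relative to *Gapdh* alone, and on that scale the side of 1 changed for 3 of the 4 genes. *Efna1* was 1.30 in run 1 and 0.758 in run 2, *Efnb2* 1.29 and 1.04, *Ephb4* 1.54 and 1.16, and *Jag1* 1.64 and 1.27. *Efnb2*, *Ephb4* and *Jag1* thus lay above 1 in both runs, again with 54 of the 78 genes, 69.2%, and *Efna1* had its runs on opposite sides of 1. None of the 4 exceeded 2-fold higher, as 14 genes did, 17.9% of the panel. Set against each housekeeping gene in turn, the 4 genes had ratios below those of *Actb*, *B2m* and *Gusb* in both runs, and above that of *Gapdh* in 7 of 8 values. Most of the panel did the same, with 62 of the 78 genes below *Actb*, 67 below *B2m* and 60 below *Gusb* in both runs. *Hsp90ab1* lay below all 4 in run 1 and above all 4 in run 2, and of the 78 genes 29 lay above it in both runs and 15 below it in both. With *Actb* alone as reference limma called 26 genes lower, 33.3% of the panel, and *Efnb2*, *Ephb4* and *Jag1* were among them. *Efna1* had the largest change of the 4 with *Actb*, -1.25, and an adjusted p of 0.0508 in limma. With *B2m* alone it called 45 genes lower, 57.7%, and all 4 were among them, in a fit that gave every gene the same standard error of 0.54.

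**Figure D2:**
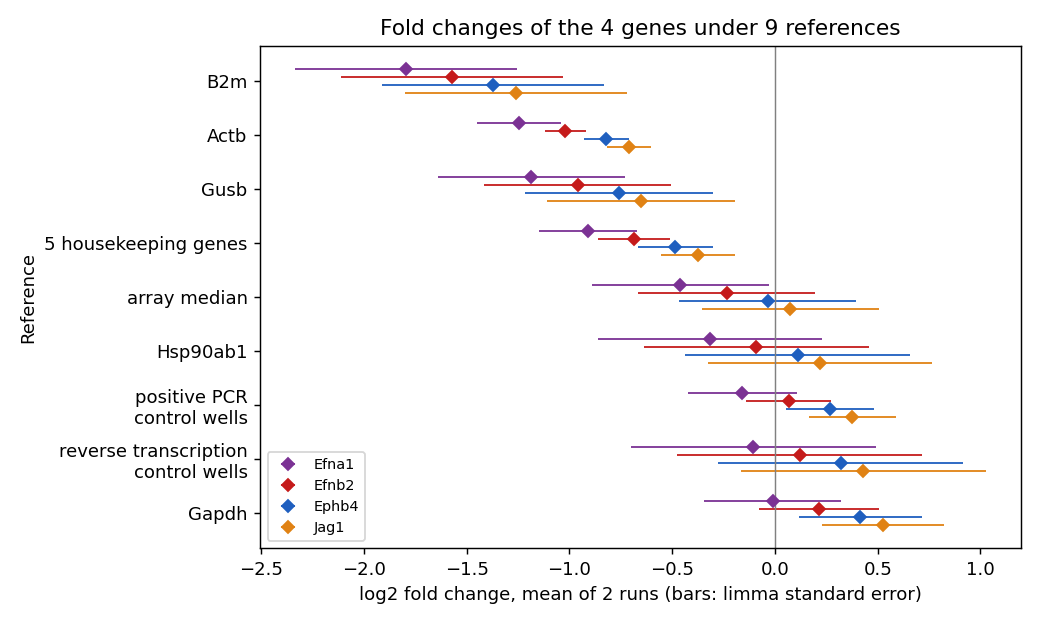
Log2 fold change of the 4 genes (diamonds, mean of 2 runs, with the limma standard error as a bar) under 9 references for the ratio, ordered by the mean over the genes. *Efna1* ranges from -1.80 with *B2m* to -0.01 with *Gapdh*, *Jag1* from -1.26 to 0.53, and the order of the 4 genes is the same under each reference because a reference shifts them together.

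A difference between genes of the same run does not depend on the reference, and it addresses whether arterial and venous identity genes moved apart. The mean of the arterial genes *Efnb2* and *Jag1* lay below venous *Ephb4* by log2 differences of -0.08 in run 1 and -0.01 in run 2, a mean of -0.05 with a standard error of 0.04 over the 2 runs. The 2 sides of the arteriovenous pair thus differed by a ratio of 0.969. With 2 runs an exact sign-flip permutation test cannot give a two-sided p below 0.5, which is the p of every difference whose runs share a sign.

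That small mean held arterial genes on either side of *Ephb4*. *Efnb2* lay below its receptor *Ephb4* in both runs, by -0.25 and -0.15, a mean of -0.20 with a standard error of 0.05 and a ratio of 0.871. *Jag1* lay above *Ephb4* in both runs, by 0.09 and 0.13, a mean of 0.11 with a standard error of 0.02 and a ratio of 1.08. The arterial genes differed more from each other than either did from *Ephb4*. *Efnb2* lay below *Jag1* by -0.34 in run 1 and -0.28 in run 2, a mean of -0.31 with a standard error of 0.03 and a ratio of 0.807. As a scale for these sizes, the 3 positive PCR control wells, which measure the same template, spread over a log2 range of 0.20 in run 1 and 0.23 in run 2, and the 3 reverse transcription control wells over 0.19 and 0.06. These wells repeat the same control assay, so their ranges do not cover the spread between assays of different genes. A gap wider than the ranges need not exceed that spread. The gap between *Efnb2* and *Jag1* was wider than these ranges in both runs. The gap between *Jag1* and *Ephb4* was narrower than the range of the positive PCR control wells in both runs. The gap between *Efnb2* and *Ephb4* was wider than that range in run 1 and narrower in run 2. Against the reverse transcription control wells, the gap between *Efnb2* and *Ephb4* was wider in both runs. The gap between *Jag1* and *Ephb4* was narrower than those wells in run 1 and wider in run 2.

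The 3 genes held their places between runs more closely than most pairs of array genes. The differences among *Efnb2*, *Ephb4* and *Jag1* changed by 0.04 to 0.10 log2 units from run 1 to run 2, while the median change over the 3003 pairs of array genes was 0.48 and the lower quartile 0.22. *Efna1* moved more against these 3 genes. It lay above *Efnb2* by 0.01 in run 1 and below it by -0.46 in run 2, and below *Ephb4* by -0.24 and -0.61. Its differences from the 3 genes changed by 0.37 to 0.47 between runs, above the lower quartile of the array pairs but below their median of 0.48. On the *Gapdh* scale the log2 ratio of *Efna1* was 0.78 higher in run 1 than in run 2, that of *Efnb2* 0.31, that of *Ephb4* 0.41 and that of *Jag1* 0.37. The panel median of this gap was 0.40, and 66 of 78 genes were higher in run 1.

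**Figure D3:**
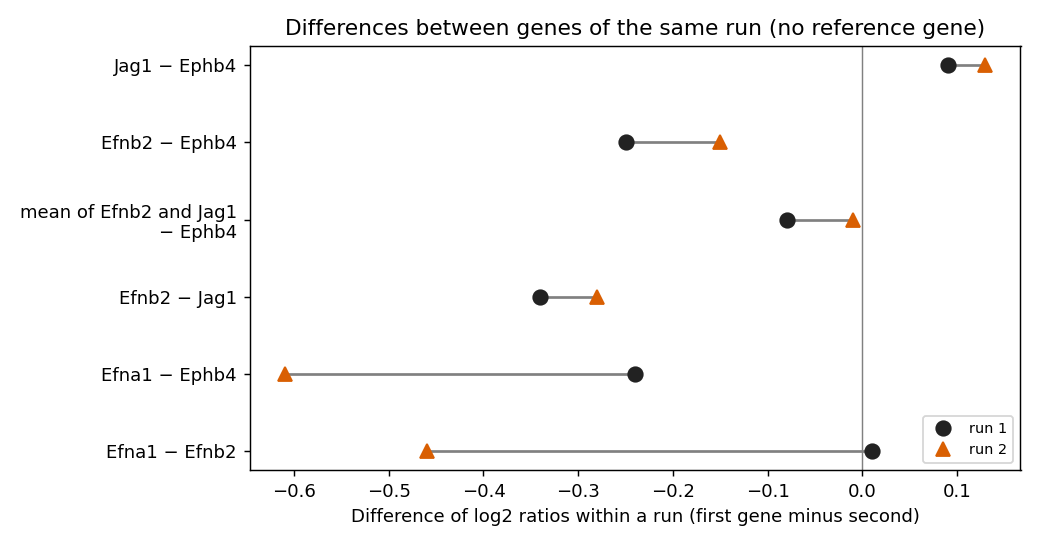
Difference of log2 ratios between genes of the same run (horizontal axis), with run 1 as black circles and run 2 as orange triangles joined by a line. For the differences among *Efnb2*, *Ephb4* and *Jag1* the 2 runs lie close together, at -0.25 and -0.15 for *Efnb2* minus *Ephb4*. *Efna1* minus *Efnb2* goes from 0.01 to -0.46.

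Within the panel, ordered from the highest ratio, *Jag1* stood at 38 of 78 in run 1 and 33 in run 2, and *Ephb4* at 43 and 39. Both were in the middle of the array genes: with each run centred on the panel median, *Jag1* was at 0.01 and 0.14 and *Ephb4* at -0.08 and 0.01. *Efnb2* stood at 53 and 51 and *Efna1* at 51 and 68. Their centred values were below 0 in both runs, at -0.33 and -0.14 for *Efnb2* and at -0.32 and -0.60 for *Efna1*. The genes nearest to each in the 2 log2 ratios, as a Euclidean distance over the 2 runs of the same pools, were named without regard to function. For *Ephb4* the nearest were *Figf*, the VEGF-D gene, at 0.07, the hypoxia-inducible factor gene *Epas1* at 0.15 and *Jag1* at 0.16. For *Jag1* they were *Figf* at 0.12, *Ephb4* at 0.16 and the tissue factor gene *F3* at 0.17. *Efnb2* was nearest to the metalloproteinase gene *Mmp19* at 0.01, to *Serpinf1*, which encodes the angiogenesis inhibitor PEDF, at 0.06 and to the p38 kinase gene *Mapk14* at 0.07. *Efna1* was nearest to 3 endothelial genes, the VE-cadherin gene *Cdh5* at 0.16, the endoglin gene *Eng* at 0.17 and the VEGF receptor gene *Flt1* at 0.21.

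All 4 genes are expressed in endothelium, and 9 of 10 listed endothelial markers were on the array (*Vwf* was not analysed here). With the 5 housekeeping genes as reference, the median log2 ratio of the 9 markers was -0.23 in run 1 and -0.55 in run 2, near that of the panel. Their mean log2 ratios ran from -1.05 for *Flt1*, the only marker more than 2-fold lower, to 0.64 for the sphingosine phosphate receptor gene *S1pr1*, with -0.93 for *Cdh5*, -0.95 for *Eng*, -0.24 for *Tek*, -0.20 for *Tie1* and 0.02 for *Pecam1*. The runs of *Tie1* (0.39 and -0.79), *Tek* (-0.50 and 0.02) and *Pecam1* (0.15 and -0.12) lay on opposite sides of 0. Those of *Cdh5* were at -0.51 and -1.34. *Efna1* lay below the marker median in both runs, by -0.38 and -0.66, and *Efnb2* by -0.39 and -0.20. *Ephb4* lay 0.14 below it in run 1 and 0.05 below it in run 2, and *Jag1* was at -0.05 and 0.08, so the venous receptor and the Notch ligand lay within 0.14 log2 units of the marker median. In run 1, 7 of the 9 markers had a ratio above that of *Efna1*, 7 above *Efnb2*, 5 above *Ephb4* and 5 above *Jag1*. In run 2 these counts were 7, 5, 5 and 4. The part of endothelial content in these ratios was not tested.

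**Figure D4:**
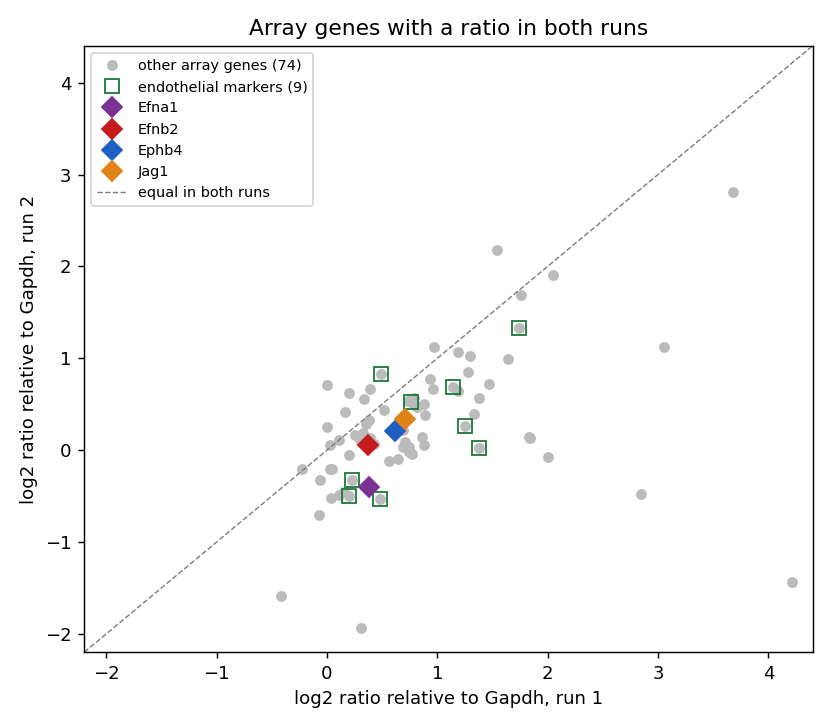
Log2 ratio of E-sel/AAV2/2 over LacZ/AAV2/2 relative to *Gapdh* in run 1 (horizontal axis) and run 2 (vertical axis) for the 78 array genes, with the 4 genes as coloured diamonds, 9 endothelial markers as open squares, the other genes as grey points and equal runs as a dashed line. The 4 genes lie below the dashed line with 66 of the 78 genes, inside the main cloud, with *Efna1* further from the line than the other three.

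A few other arterial and venous genes were measured. Of 11 further arterial genes listed, 2 were on the array. For *Nrp1*, a VEGF and semaphorin co-receptor of arterial endothelium, the log2 ratio on the 5 housekeeping genes was -0.13 in run 1 and -0.67 in run 2, with an adjusted p of 0.261 in limma. For *Nos3*, which encodes endothelial nitric oxide synthase, the target of L-NAME, it was 0.26 and -0.55, with an adjusted p of 0.744 in limma. The runs of *Nos3* lay on opposite sides of 0. Of 4 venous genes listed, *Nrp2*, the co-receptor of venous and lymphatic endothelium, was the 1 on the array, at -0.20 and -0.24, with an adjusted p of 0.368 in limma. All 3 had a mean below 0 on this reference, as 58 of the 78 genes did, and all 3 lay above 1 in both runs relative to *Gapdh*, as 54 did. Within runs, *Nrp1* minus *Nrp2* was 0.07 in run 1 and -0.43 in run 2, and *Nos3* minus *Nrp2* was 0.46 and -0.31, both with opposite signs. Against *Ephb4*, *Nrp1* was at 0.24 and -0.07 and *Nos3* at 0.63 and 0.05. *Nrp2* lay above *Ephb4* in both runs, by 0.17 and 0.36. This gap between the 2 venous genes was narrower than the ranges of both kinds of control wells in run 1 and wider in run 2. Of 17 other Eph, ephrin and Notch genes listed, 0 were on the array.

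The VEGF ligands and receptors act upstream of Notch and ephrin-B2 in arterial specification, and 7 of 7 were measured. On the 5 housekeeping genes their median log2 ratio was -0.45, equal to 2 decimals to the panel median of -0.45. In both runs 6 of 7 were below 1, as were 54 of the 78 array genes, 69.2%. The limma test called 0 of the 7 genes, and 0 of the 78 array genes. The ligands were at -0.49 for *Vegfa*, -0.64 for *Vegfb*, -0.37 for *Vegfc*, -0.45 for *Figf* and 0.42 for *Pgf*, and the receptors at -0.26 for *Kdr* and -1.05 for *Flt1*. *Efna1*, *Efnb2*, *Ephb4* and *Jag1*, at -0.91 to -0.38, lay within the range of this group, as did most array genes. Ordered from the highest mean ratio, *Pgf* stood at 8 of 78 and *Flt1* at 70. Lying between them does not set a gene apart from the panel.

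Markers of other cells in the muscle were few. Leukocyte genes on the array were *Tnf*, the inducer of *Efna1* in endothelium, with a mean log2 ratio of 1.08, and *Il1b* with -0.55, 2 of 6 listed. The runs of *Il1b* lay apart, at -0.99 and -0.10, and those of *Tnf* were at 1.06 and 1.10. Muscle was represented by *Fgf6* at -1.12, 1 of 5 listed, and adipose tissue by *Lep* at 2.35, 1 of 2 listed. Of 5 mural cell markers, 0 were on the array. The part of these cells in the ratios of the 4 genes was not tested.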

How the data were processed

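Total RNA pools of ischemic muscle were measured by SYBR Green RT-qPCR on an angiogenesis PCR array (96 wells, 84 genes, 5 housekeeping genes). The authors deposited, for each gene, a ratio of E-sel/AAV2/2 over LacZ/AAV2/2 (2^-ΔΔCt) within each run number, with *Gapdh* equal to 1 in both runs. These ratios are named by gene and were used here because the other values carry no gene names. The ratio was missing for 5 genes in run 1 and 3 in run 2, leaving 78 in both. The labels give 3 mice per pool, and the methods a wider range. The authors also deposited threshold cycles by well without gene names and without normalization. These cycles gave the deposited ratio in 1 of 84 wells in run 1 and 1 of 91 in run 2 (tolerance 0.005 log2), and in 0 of the wells of the 4 genes. The 1 match in each run was the position taken as *Gapdh*, which is 0 on both sides by construction. No other well matched. Whether the wells or runs of one table are ordered differently could not be settled, so which cycles underlie the ratios is not known. None of the 84 genes was named on a cycle. The 5 housekeeping wells, however, were taken by plate position, which could not be checked, and their mean cycle was subtracted. The cycles serve only for a count of wells called and a correlation between runs, and both rest on those positions. Wells with a cycle numbered 94 in run 1 and 94 in run 2 of E-sel/AAV2/2, against 90 and 95 for LacZ/AAV2/2.

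Ratios were taken to log2 and shifted so that the mean of the 5 housekeeping genes was 0 in each run. Fold changes are geometric means over both runs, with a 2-fold threshold. The limma test (version 3.58.1, R 4.3.3; two-sided, by lmFit and eBayes, with Benjamini-Hochberg adjustment over 78 genes, adjusted p threshold 0.05) was fitted to the paired log2 ratios and checked on simulated data. Differences between genes were taken within runs. Python 3.11.15 with numpy 2.4.6 and pandas 2.3.3 was used. Genes named are the members, the housekeeping genes, every listed gene on the array and the 3 genes nearest to each member. The members and lists were chosen with earlier results of these data known. Promoter windows are from RefSeq (GRCm38.p6), in which 4 of 4 genes matched. Alternatives were other references, thresholds of 1.5-fold and 3-fold, an unadjusted p, each run left out and other members of the arterial and venous sides.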

Additional observations from a re-analysis of the deposited data

How the results depend on the processing

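The sign and the calls moved with the reference, all p-values compare 2 pools through 2 runs each, and the variance model of limma also changed with the reference. Relative to *B2m* alone the log2 fold changes were -1.80 for *Efna1*, -1.57 for *Efnb2*, -1.37 for *Ephb4* and -1.26 for *Jag1*, with 4 of the 4 genes over 2-fold lower, as 55 of the 78 array genes were. Relative to *Actb* alone they were -1.25 for *Efna1*, -1.02 for *Efnb2*, -0.82 for *Ephb4* and -0.71 for *Jag1*, with 2 genes over 2-fold lower (23 of 78 in the panel), and relative to *Gusb* alone 1 was (18 of 78). Relative to *Gapdh* alone they were 0.22 for *Efnb2*, 0.42 for *Ephb4* and 0.53 for *Jag1*, 3 genes above 1 (64 of 78). *Hsp90ab1* gave 0.11 for *Ephb4* and 0.22 for *Jag1*, 2 genes above 1 (50 of 78), and the array median gave 0.075 for *Jag1*, 1 gene above 1 (39 of 78). References chosen after seeing the data gave 0.12, 0.32 and 0.43 for *Efnb2*, *Ephb4* and *Jag1* relative to the reverse transcription controls, and 0.067, 0.27 and 0.38 relative to the positive PCR controls, 3 genes above 1 in each case (62 and 60 of 78). The mean of *Efna1* was below 1 under the 9 references, but with *Gapdh* it was 0.993 with runs at 1.30 and 0.758, and 14 of 78 genes were below 1 there. The comparison with the endothelial median was also chosen after seeing the data. Without a multiple-testing adjustment *Efna1* (-0.91) and *Efnb2* (-0.69) passed limma's threshold. At 1.5-fold, 2 of the 4 genes were lower (29 of 78). Without run 1, 1 gene (*Efna1*) was over 2-fold lower, with 16 of 78 in the panel, and without run 2, 0 were, with 4 of 78. The leave-one-out log2 fold changes were -1.21 to -0.61 for *Efna1*, -0.75 to -0.62 for *Efnb2*, -0.60 to -0.37 for *Ephb4* and -0.47 to -0.28 for *Jag1*.

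Array genes over 2-fold higher and lower numbered 3 and 9 with the 5 housekeeping genes, 1 and 23 with *Actb*, 1 and 55 with *B2m*, 14 and 1 with *Gapdh*, 1 and 18 with *Gusb*, 8 and 2 with *Hsp90ab1*, 6 and 2 after centring on the array median, 11 and 1 on reverse transcription controls, 10 and 1 on positive PCR controls, 6 and 29 at 1.5-fold, 1 and 2 at 3-fold, and 3 to 6 and 4 to 16 with a run left out. Genes called higher and lower by limma numbered 0 and 0 with the 5 housekeeping genes, 2 and 26 with *Actb*, 1 and 45 with *B2m*, 4 and 0 with *Gapdh*, 1 and 11 with *Gusb*, 1 and 0 with *Hsp90ab1*, 5 and 2 after centring on the array median, 1 and 0 on reverse transcription controls, 2 and 0 on positive PCR controls, and 5 and 27 at an unadjusted p. These fits differ in form: the total degrees of freedom were 3.27 with the 5 housekeeping genes, 2.17 with *Actb*, 5.06 with *Gapdh* and 3.63 with positive PCR controls, but 78, with 1 standard error shared by every gene, with *B2m*, *Gusb*, *Hsp90ab1*, the array median and reverse transcription controls, so the counts do not isolate the reference. The arterial mean minus *Ephb4* was -0.05 as reported, 0.11 without *Efnb2*, -0.20 without *Jag1* and -0.18 with *Nrp2* added to the venous side. Leaving *Notch4* out was not run, since *Notch4* was not analysed here. In the table of cycles limma called 4 of 77 wells, 5 with the run number as a replicate block (10 and 12 at an unadjusted p), and 0 to 5 with 1 sample left out: 0 without E-sel/AAV2/2 run 1, LacZ/AAV2/2 run 1 or E-sel/AAV2/2 run 2, and 5 without LacZ/AAV2/2 run 2. Deviations of same-numbered runs correlated at 0.33 over wells. These calls and this correlation took the housekeeping wells by plate position, which could not be checked. The deposited ratios pair the runs by number, so an unpaired fit of named genes could not be made.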
